A study of Mus musculus with 2 samples.

Results

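Chromatin accessibility at 8 chemokine receptor genes (Cxcr4, Cxcr2, Cxcr5, Ccr1, Ccr2, Ccr7, Ccr9 and Cx3cr1) was compared between young and aged mouse hematopoietic stem cells (HSCs). The genes are a chosen set of 8 out of 21521 protein-coding genes annotated on the autosomes and chromosome X. They were picked by name, with earlier results of these data known. For each gene, single-cell ATAC-seq fragments were counted at the transcription start site (TSS) with 1 kb on either side, over the gene body, and in bins of 500 bp reaching 100 kb beyond the gene. Fragments come from barcodes that the authors called as cells and that held 3000 to 20000 fragments in the authors' peaks.

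The study made 2 libraries from bone marrow HSCs of C57BL/6 mice, 1 of young mice aged 10 weeks and 1 of aged mice aged 20 months. Both were sorted on the same surface markers, as CD34- CD150+ CD48- Flt3- cells that were also IL-7-, Lin-, Sca-1+ and c-kit+, and the labels list no transgene or treatment for either. The mice of the study were female, and how many mice stand behind each library is not given in the sources used here. The assay cuts open DNA of each nucleus with a transposase, so a fragment end marks an accessible base, and it reads neither RNA nor receptor protein. With 1 library per age there are no replicates: no test between ages was possible, all intervals cover counting error only, and age cannot be told apart from any other difference between the libraries.

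Chemokine receptors are G protein-coupled receptors that steer cells along gradients of small secreted chemokines. Cxcr4 binds Cxcl12 and holds HSCs in the bone marrow niche, while Cxcr2 is the receptor through which neutrophils follow Cxcl1 and related chemokines. Ccr1, Ccr2 and Cx3cr1 belong to monocytes, macrophages and related cells, and Cxcr5, Ccr7 and Ccr9 guide lymphocytes and their progenitors to B cell follicles, lymph nodes and the thymus or gut.

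The young library gave 4887 cells out of 5028 called, with a median of 9890 fragments per cell, and the aged library gave 3405 out of 3694, with a median of 11020. The fragments in the peaks called here, to which all levels were scaled, came to 34641539 in young and 26150714 in aged cells. Levels are given as fragments per 1000000 of these (FPM). Short fragments, those that cannot span a nucleosome, made up 59.8% of the young and 55.0% of the aged library, and 26 barcodes were shared between the cells of both libraries. Cells marked as doublets, kept here, were 4.19% of young and 7.34% of aged cells. Of 8 HSC marker promoters (among them Hlf, Mecom, Procr, Fgd5, Slamf1, Hoxb5 and Ctnnal1), 8 held at least 50 fragments and 0 differed 1.5-fold between the libraries, with a summed level of 207 FPM in young and 211 FPM in aged cells.

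The sequence at the Cxcr4 start site is shown first, since this promoter was by far the most open of the 8. It covers 250 bases before and 50 after the RefSeq start (GRCm38, the build of mm10), chr1:128592250-128592549 on the minus strand. Capitals mark matches to any of 12 short motifs searched on both strands.

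Cxcr4 promoter: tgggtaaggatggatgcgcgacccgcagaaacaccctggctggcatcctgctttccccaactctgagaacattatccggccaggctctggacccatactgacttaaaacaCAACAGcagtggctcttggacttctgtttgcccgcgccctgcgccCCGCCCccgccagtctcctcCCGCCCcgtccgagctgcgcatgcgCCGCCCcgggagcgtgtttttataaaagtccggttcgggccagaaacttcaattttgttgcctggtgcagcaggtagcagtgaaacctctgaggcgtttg

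The capitals hold 3 matches to GGGCGG, the GC box read by KLF and SP factors, in its reverse complement at 95, 75 and 50 bases before the start, and 1 match to the MYB motif CNGTTG at 140 bases before it. GGGCGG was found in 46.7% and CNGTTG in 33.6% of 21045 promoters of this length. The window was 59.3% GC with 20 CpG dinucleotides, against medians of 56.7% and 13 over those promoters.

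The Cx3cr1 promoter is shown for contrast, since it was the member promoter with the largest difference between the ages. It lies at chr9:120068247-120068546 on the minus strand.

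Cx3cr1 promoter: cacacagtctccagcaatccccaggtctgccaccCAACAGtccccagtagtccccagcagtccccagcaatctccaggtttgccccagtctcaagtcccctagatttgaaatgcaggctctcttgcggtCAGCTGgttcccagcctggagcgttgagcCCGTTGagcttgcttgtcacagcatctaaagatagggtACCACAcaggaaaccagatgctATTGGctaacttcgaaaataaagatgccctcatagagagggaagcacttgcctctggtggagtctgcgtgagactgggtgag

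It was 54.3% GC with 5 CpG dinucleotides and no match to GGGCGG. The capitals hold a match to the RUNX motif TGTGGT 54 bases before the start, to CCAAT 32 bases before it, to an E-box (CAGCTG) 121 bases before it, and 2 to the MYB motif. The RUNX motif was found in 14.7%, the CCAAT motif in 38.5% and the E-box in 15.7% of all promoters of this length. Promoters of Cxcr2, Ccr1, Ccr2 and Ccr9 held 2, 1, 1 and 4 CpG dinucleotides, so Cxcr4 was the CpG-rich member among the 6 with a RefSeq promoter sequence. Cxcr5 and Ccr7 were not in that table.

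Cxcr4, on the minus strand at chr1:128588199-128592299, had the highest promoter level of the 8 genes in both libraries. Its promoter window held 1612 fragments in young cells, a level of 46.5 FPM (interval 44.3 to 48.9), and 1216 in aged cells, also 46.5 FPM (43.9 to 49.2). The log2(aged/young) ratio was -0.00 with an interval of -0.11 to 0.11, which leaves out any difference of 1.5-fold. It stood at the 85.8th percentile of all promoters in young and at the 87.8th in aged cells.

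The other promoters formed a middle and a low group. In young cells Cx3cr1 had 178 fragments (5.14 FPM), Cxcr5 168 (4.85 FPM), Cxcr2 160 (4.62 FPM), Ccr7 137 (3.95 FPM) and Ccr1 99 (2.86 FPM), with overlapping intervals between each neighbouring pair of this order. The median of all promoters was 13.4 FPM in young and 14.2 FPM in aged cells, so these 5 were below it. In aged cells the order was Cxcr5 with 189 fragments (7.23 FPM), Cxcr2 with 96 (3.67 FPM), Cx3cr1 with 84 (3.21 FPM), Ccr7 with 70 (2.68 FPM) and Ccr1 with 63 (2.41 FPM). Here the Cxcr5 interval, 6.23 to 8.33 FPM, was clear of that of Cxcr2, and the next pairs overlapped.

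Ccr9 and Ccr2 were last in both libraries. Ccr9, the receptor for Ccl25 of the thymus and gut, had 18 fragments in young (0.520 FPM) and 10 in aged cells (0.382 FPM). Ccr2, the receptor that brings monocytes out of the marrow, had 16 (0.462 FPM) and 11 (0.421 FPM). Promoters of 1109 olfactory receptor genes, which blood cells do not use, served as closed background: their median was 0.115 FPM in young and 0.153 FPM in aged cells, and their 95th percentile was 0.520 FPM and 0.612 FPM. Both Ccr2 and Ccr9 lay at or below that 95th percentile in either library, so their promoters were within the range of closed promoters. Their intervals lay above the median of closed promoters, from 0.264 FPM (Ccr2) and 0.308 FPM (Ccr9) in young cells. In aged cells they began at 0.210 FPM and 0.183 FPM. The GENCODE 5' end of Ccr9 (Ccr9-202) held 294 and 253 fragments (8.49 and 9.67 FPM). Its window overlaps that of Slc6a20a, whose start is 88.4 kb upstream of the RefSeq start of Ccr9.

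**Figure D1:**
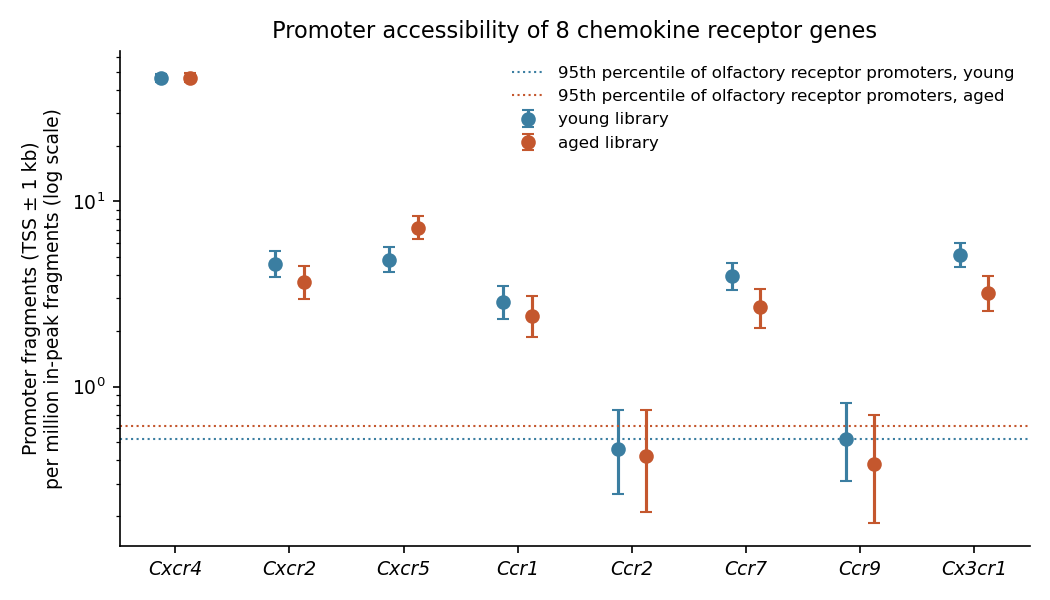
Promoter level of each receptor gene in the young and the aged library, as fragments within 1 kb of the TSS in FPM on a log axis, with exact Poisson 95% intervals. Cxcr4 sits at 46.5 FPM in both libraries, 5 genes sit between 2.41 and 7.23 FPM, and Ccr2 and Ccr9 sit at the dotted lines that give the 95th percentile of olfactory receptor promoters.

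Between the ages, Cx3cr1, the fractalkine receptor of monocytes and other mononuclear phagocytes, was the promoter that differed most among the 6 with at least 50 fragments. It held 178 fragments in young and 84 in aged cells, 5.14 against 3.21 FPM, a log2 ratio of -0.67 (interval -1.07 to -0.30). It was the 1 member at least 1.5-fold lower in aged cells, while 1.20% of 15702 promoters with at least 50 fragments were so. The intervals of the levels, 4.41 to 5.95 FPM in young and 2.56 to 3.98 FPM in aged cells, did not overlap. The call rests on the window: with 500 bp on either side of the TSS the ratio was -0.52, and with 5 kb it was -0.11.

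Cxcr5, the receptor for the follicle chemokine Cxcl13, went the other way. Its promoter held 168 fragments in young and 189 in aged cells, 4.85 against 7.23 FPM, a log2 ratio of 0.57 (0.27 to 0.88). This is a ratio of 1.49, just short of 1.5-fold. It was 0.62 with 500 bp on either side of the TSS and 0.09 with 5 kb. Of the 8 promoters, 0 were at least 1.5-fold higher in aged cells, against 4.04% of all promoters tested.

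Ccr7, which leads lymphocytes and dendritic cells into lymph nodes, had 137 fragments in young and 70 in aged cells, a log2 ratio of -0.55 (-1.0 to -0.14). The neutrophil receptor gene Cxcr2 had 160 and 96, at -0.33 (-0.71 to 0.04). Ccr1, a receptor for Ccl3 and related chemokines, had 99 and 63, at -0.24 (-0.73 to 0.22). The intervals of Cxcr2 and Ccr1 include 0, so no difference was detectable at these counts, and they also include a decrease of 1.5-fold. Ccr2 (-0.10, with an interval of -1.39 to 1.06) and Ccr9 (-0.38, -1.72 to 0.75) were too sparse for a difference to be read. The median log2 ratio was -0.28 over the 8 promoters and -0.05 over all promoters tested.

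Gene body ratios lay nearer to 0 than promoter ratios for 6 of the 8 genes. All 8 bodies held at least 50 fragments, and 0 were 1.5-fold higher and 0 were 1.5-fold lower in aged cells, against 3.29% and 0.706% of 18127 gene bodies. The median was -0.09 over the 8 gene bodies and -0.02 over all gene bodies tested. Cx3cr1 was lower here too, with 752 fragments in young and 454 in aged cells, a log2 ratio of -0.32 (-0.49 to -0.15), and it was at -0.30 (-0.48 to -0.12) with the first 1 kb left out, so the lower level was not limited to the promoter window. Over the longer gene that GENCODE gives for Cx3cr1 it was -0.06. That longer gene spans the starts of Csrnp1 and Xirp1, so its count includes fragments at other genes.

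Cxcr5 was higher at the promoter and lower over the gene. Its body held 1464 fragments in young and 975 in aged cells, a log2 ratio of -0.18 (-0.30 to -0.06), and the promoter and body intervals did not overlap. Ccr7 had 1319 and 910 body fragments, at -0.13 (-0.25 to -0.01). For Cxcr4, with 1213 and 955 body fragments, the value was 0.06 (-0.06 to 0.18), so the gene was level over its whole length.

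The remaining bodies had intervals that include 0. Cxcr2 had 248 and 180 fragments (-0.05), Ccr1 82 and 64 (0.05), Ccr2 219 and 183 (0.15), and Ccr9 354 and 236 (-0.18). Per kb of gene in young cells, the body level was 8.54 FPM for Cxcr4, 3.50 for Ccr7, 2.88 for Cxcr5, 1.11 for Cx3cr1, 0.987 for Cxcr2, 0.875 for Ccr2, 0.629 for Ccr9 and 0.360 for Ccr1. The median of all gene bodies was 1.02 FPM per kb and that of olfactory receptor genes 0.0621. Ccr7 and Cxcr5 thus had quiet promoters but bodies above the median, at the 84.9th and 80.8th percentile in young cells, and the bodies of Ccr2 and Ccr9 were at the 45.4th and 37.5th percentile.

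**Figure D2:**
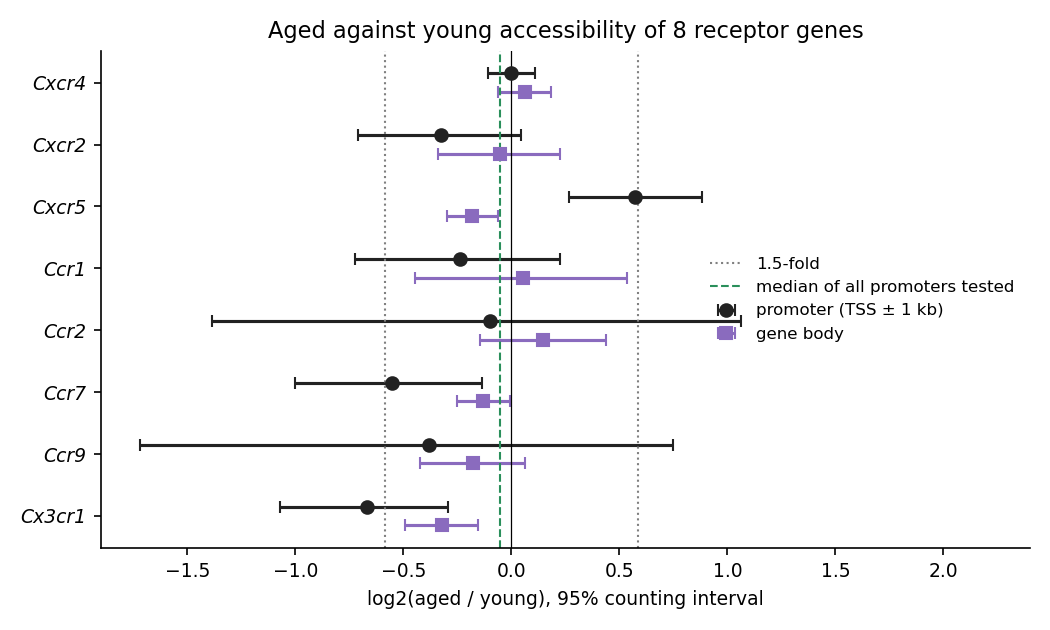
Log2(aged/young) of each receptor gene at the promoter (circles) and over the gene body (squares), with exact binomial 95% intervals of the counts, dotted lines at 1.5-fold and a dashed line at the median of all promoters tested (-0.05). The Cxcr5 promoter lies at 0.57 and its body at -0.18, Cx3cr1 lies below 0 on both measures, and the intervals of Cxcr4 include 0 on both.

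Counted in steps of 100 bp, the cut sites showed where within a promoter the difference lay. At Cxcr4 the tallest steps were 300 to 400 bp before the start, with 547 cut sites in young and 360 in aged cells, and the 100 bp before the start, with 438 and 323. At Cxcr5 the summit was 200 to 300 bp before the start, with 135 cut sites in both libraries, and the next step upstream had 42 in young and 60 in aged cells. Since the aged library holds fewer fragments, equal raw counts stand for a higher aged level.

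At Ccr7 the young summit, 200 to 300 bp before the start, had 65 cut sites against 26 in aged cells. At Cx3cr1 the 100 bp on either side of the start had 56 and 56 cut sites in young and 28 and 26 in aged cells. A separate small summit 600 to 700 bp before the Cx3cr1 start had 36 cut sites in young and 4 in aged cells. The peak called there, centred 616 bp before the start, had 39 fragments in young and 11 in aged cells (log2 ratio -1.33, -2.53 to -0.43). It has fewer than 100 fragments, and the summit and its peak were singled out after their values were seen. With so few aged fragments, the peak may have been called in the young library alone.

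**Figure D3:**
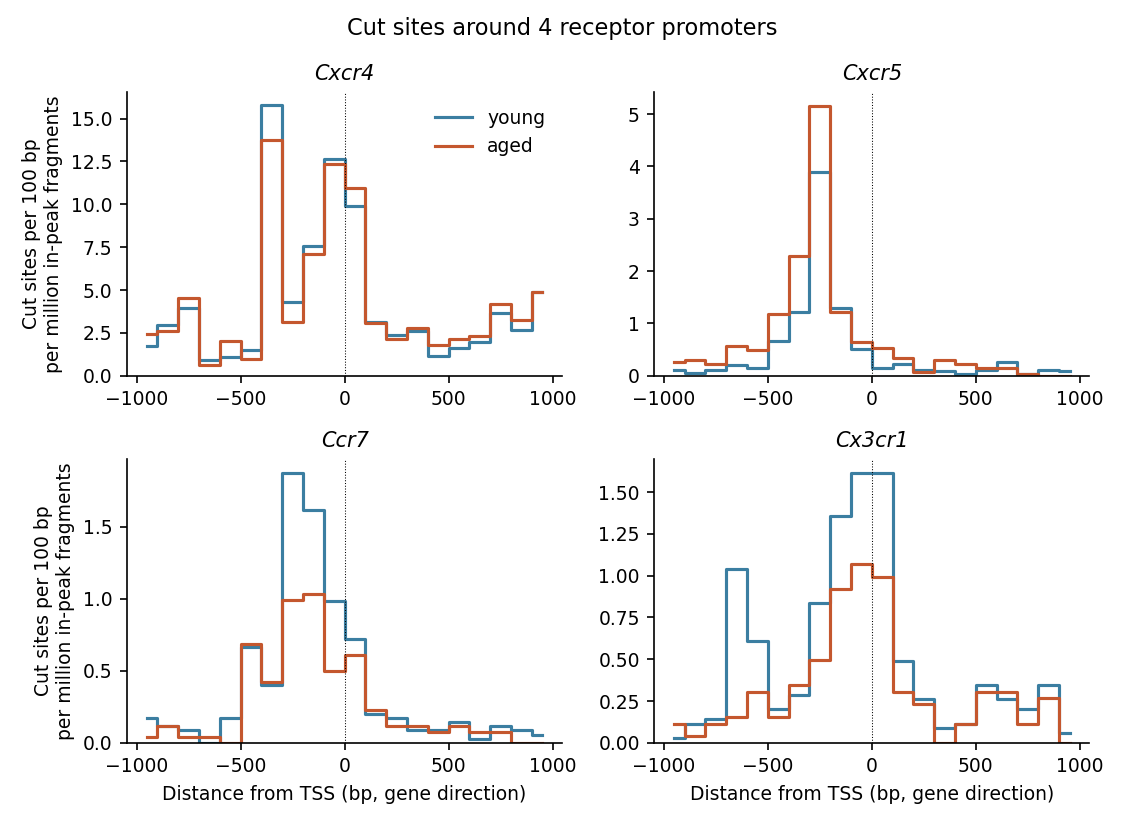
Cut sites in steps of 100 bp around the start sites of Cxcr4, Cxcr5, Ccr7 and Cx3cr1, in FPM, in gene direction, for the young and the aged library. The lines lie close together at Cxcr4, the aged line is higher at the summit upstream of Cxcr5, and the young line is higher at the summit before Ccr7 and next to the start of Cx3cr1, where the small upstream summit of 36 young cut sites is at 4 in aged cells. That small summit was singled out after its values were seen.

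Peaks, called on each library and then merged, resolve the gene bodies into elements. Cx3cr1, on the minus strand at chr9:120048683-120068296, held elements that went in opposite directions. The peak at its start had 113 fragments in young and 58 in aged cells (log2 ratio -0.54, -1.04 to -0.09). The intron element centred 13.3 kb inside the gene had 384 and 180 fragments, a log2 ratio of -0.68 (-0.95 to -0.43), the lowest among the Cx3cr1 peaks with at least 100 fragments. A smaller intron peak 9.28 kb inside had 56 and 22 (-0.90, -1.72 to -0.21). In contrast, an intron peak 3.79 kb inside had 75 fragments in young and 107 in aged cells, 2.17 against 4.09 FPM, a log2 ratio of 0.91 (0.48 to 1.36). It was singled out after its values were seen.

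The central 200 bases of the 13.3 kb and the 3.79 kb intron elements are shown since they are the lower and the higher element of the same gene, at chr9:120054876-120055075 and chr9:120064404-120064603, both read on the plus strand of GRCm38.

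Cx3cr1 intron, lower in aged: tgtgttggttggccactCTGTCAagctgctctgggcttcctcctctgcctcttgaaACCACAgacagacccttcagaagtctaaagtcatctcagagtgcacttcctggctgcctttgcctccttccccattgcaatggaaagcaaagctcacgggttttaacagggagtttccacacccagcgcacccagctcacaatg

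Cx3cr1 intron, higher in aged: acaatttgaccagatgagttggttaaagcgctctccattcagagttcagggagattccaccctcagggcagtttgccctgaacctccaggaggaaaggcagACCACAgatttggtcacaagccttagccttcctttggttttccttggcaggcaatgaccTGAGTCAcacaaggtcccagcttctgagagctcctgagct

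The first holds matches to the RUNX motif TGTGGT and to the MEIS motif TGACAG, both in reverse complement. The second holds TGTGGT in reverse complement and the AP-1 motif TGANTCA, which is found in 9.35% of 164572 peak centres, against 21.6% for TGTGGT and 14.4% for TGACAG. A match is a run of letters, and binding was not measured.

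The 5 peaks of Cxcr5, at chr9:44511787-44526444 on the minus strand, split at the start site. The promoter peak centred 262 bp before the start had a level of 3.93 FPM in young and 5.62 FPM in aged cells (log2 ratio 0.52, 0.17 to 0.87). Inside the gene, the peak at 4.32 kb had 247 and 150 (-0.31, -0.62 to -0.02), the peak at 10.97 kb had 488 and 359 (-0.04, -0.24 to 0.16), and the peak in the noncoding last-exon part at 14.2 kb had 394 and 204 (-0.54, -0.80 to -0.30). The small peak at 5.05 kb had 30 and 11. The element near the 3' end thus had the lowest ratio among those with at least 100 fragments, and the peak at 10.97 kb was level.

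GENCODE gives Cxcr5 further starts upstream of the RefSeq start. The nearest, of transcript Cxcr5-205, has a window that largely overlaps that of the RefSeq start and held 168 fragments in young and 192 in aged cells (log2 ratio 0.60, 0.29 to 0.91), a ratio of 1.51 and so past 1.5-fold. The distant starts had ratios below 0. The window at the start of transcript Cxcr5-202 had 37 fragments in young and 13 in aged cells (log2 ratio -1.03, -2.14 to -0.16), and that of Cxcr5-204, 35.4 kb upstream, had 80 and 41 (-0.54, -1.14 to 0.00). With the start of Cxcr5-204, the 5' end of the gene in GENCODE, in place of the RefSeq start, the direction of the Cxcr5 promoter turns.

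The Ccr7 gene, at chr11:99144199-99155077 on the minus strand, held its largest peak in an intron 7.40 kb inside, with 655 fragments in young and 396 in aged cells (-0.32, -0.50 to -0.14). Its promoter peak had 114 and 57 (-0.58, -1.08 to -0.12), an intron peak at 4.97 kb had 235 and 162 (-0.13, -0.43 to 0.16), and the peak near its 3' end had 216 and 197 (0.27, -0.01 to 0.56). The intron peak at 7.40 kb and the promoter peak were lower in aged cells beyond counting error.

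Cxcr4 was level in each of its peaks. The promoter peak had 1117 fragments in young and 818 in aged cells (-0.04, -0.18 to 0.09), the intron peak at 1.06 kb had 720 and 565 (0.06, -0.11 to 0.22), and the peak centred 914 bp before the start had 271 and 209 (0.03, -0.24 to 0.30). All 3 intervals leave out a difference of 1.5-fold.

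In the first intron of Ccr9, at chr9:123767211-123783457 on the plus strand, a small element 2.43 kb inside had 38 fragments in young and 5 in aged cells, 1.10 against 0.191 FPM, a log2 ratio of -2.29 (-4.22 to -1.17). It has fewer than 100 fragments and was singled out after its values were seen. Peaks were called on each library, and 5 aged fragments are too few for a call in the aged library. This peak thus entered through the young library alone. Its direction was tied to the call and is no support for a decrease with age. The larger intron peak at 5.47 kb had 130 and 96 (-0.03), and the one at 6.29 kb had 54 and 31 (-0.38, -1.08 to 0.27), so the other Ccr9 elements did not differ beyond counting error. The central 200 bases of the 2.43 kb element are shown as the largest ratio inside any of the 8 genes, at chr9:123769538-123769737 on the plus strand, with a match to CCAAT in capitals.

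Ccr9 intron, lower in aged: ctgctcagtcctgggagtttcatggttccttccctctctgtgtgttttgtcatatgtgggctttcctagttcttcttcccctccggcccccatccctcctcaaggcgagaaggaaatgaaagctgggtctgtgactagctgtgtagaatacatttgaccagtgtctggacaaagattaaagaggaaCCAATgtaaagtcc

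Of the smaller genes, Cxcr2 (chr1:74153994-74161246, plus strand) had a promoter peak of 144 fragments in young and 77 in aged cells (-0.49, -0.92 to -0.09), and 3 peaks inside whose intervals include 0. Ccr1 (chr9:123962126-123968692, minus strand) had a single peak at its start, with 90 and 52 (-0.37, -0.91 to 0.12). Ccr2 (chr9:124101918-124109140, plus strand) had a peak of 91 and 84 in its last exon (0.29, -0.16 to 0.73) and an intron peak of 49 and 30 (-0.28, -1.01 to 0.38), and no peak within 1 kb of its start. A small peak 1.43 kb before the Ccr2 start, with fewer than 100 fragments, had 26 in young and 44 in aged cells (1.14, 0.43 to 1.92). That peak was singled out after its values were seen. Being so sparse, it may have been called in the aged library alone, and its direction would then be tied to the call.

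Within 100 kb of the 8 genes there were 278 peaks, of which 184 held at least 100 fragments. Of these, 8 were at least 1.5-fold higher and 9 at least 1.5-fold lower in aged cells, against 9.61% and 4.01% of 97322 peaks genome-wide, and their median log2 ratio was -0.03. Cxcr5 had 5 of the lower peaks and 1 higher, Cxcr2 had 4 higher and 0 lower, and Cx3cr1 had 2 higher and 1 lower. All 5 lower peaks near Cxcr5 lie nearer to the start of another gene (Ccdc84, Foxr1, Upk2 or Ddx6) than to that of Cxcr5. The same holds for most higher peaks near Cxcr2 (Tns1, Cxcr1 and Gpbar1). It also holds for the higher peak near Ccr9 (Slc6a20a) and for 1 near Cx3cr1 (Csrnp1). These counts thus describe the flanks and not the receptor genes alone.

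Upstream of Cxcr4, the peak with the most fragments was 22.9 kb before the start, with 1903 fragments in young and 1297 in aged cells, 54.9 against 49.6 FPM, above the promoter itself. Its log2 ratio was -0.15 (-0.25 to -0.04). Among peaks with at least 100 fragments, the lowest ratio near Cxcr4 was 83.5 kb upstream, with 77 and 29 fragments (-0.97, -1.67 to -0.37), and the highest was 45.2 kb downstream of the start, with 75 and 70 (0.31, -0.18 to 0.80). The centre of the 22.9 kb element, chr1:128615083-128615282 on the plus strand, is shown as the most open element outside promoters near any of the 8 genes, with matches to CCAAT and, in reverse complement, GGGCGG.

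Cxcr4 upstream element: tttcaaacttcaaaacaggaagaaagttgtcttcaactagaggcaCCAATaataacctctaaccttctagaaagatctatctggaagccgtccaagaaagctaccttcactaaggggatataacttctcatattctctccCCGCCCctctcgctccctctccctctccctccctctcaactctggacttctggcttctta

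Around Ccr7 the median over 22 peaks with at least 100 fragments was -0.22. The peak with the most fragments, 27.8 kb upstream, had 794 in young and 448 in aged cells (-0.42, -0.59 to -0.25). The lowest ratio among these 22 peaks was 21.4 kb downstream of the start, beyond the gene's 3' end, with 187 and 65 fragments, 5.40 against 2.49 FPM, a log2 ratio of -1.10 (-1.55 to -0.70). The highest was 48.5 kb downstream, with 184 and 208 (0.58, 0.29 to 0.88). The centre of the lowest element, chr11:99133610-99133809, plus strand, is shown as the clearest decrease near Ccr7, with matches to CCAAT and TGACAG in reverse complement.

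Ccr7 downstream element, lower in aged: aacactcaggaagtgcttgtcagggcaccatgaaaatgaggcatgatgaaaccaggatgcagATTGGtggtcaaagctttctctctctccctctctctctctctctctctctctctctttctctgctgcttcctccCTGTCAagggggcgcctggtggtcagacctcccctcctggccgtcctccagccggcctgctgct

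Near Cxcr5 the lowest ratio among peaks with at least 100 fragments was 56.2 kb upstream, with 84 fragments in young and 21 in aged cells (-1.54, -2.36 to -0.89), and it lies 20355 bp from the start of Ddx6. The highest was 15.5 kb downstream of the start, inside Bcl9l, with 54 and 71 (0.79, 0.27 to 1.34). The peak with the most fragments, 16.4 kb downstream and also inside Bcl9l, was level with 1120 and 816 (-0.05, -0.18 to 0.08).

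Near Cx3cr1 the peak with the most fragments, 56.9 kb downstream of the start and 12170 bp from the start of Xirp1, had 1010 and 870 (0.19, 0.06 to 0.32), and the highest ratio among those with at least 100 fragments, 74.0 kb downstream, had 41 and 74 (1.24, 0.69 to 1.84). With the same minimum, the highest ratio near Ccr9 was 78.8 kb upstream and 9600 bp from the start of Slc6a20a, with 62 fragments in young and 113 in aged cells (1.26, 0.81 to 1.74). The lowest near Ccr9 with that minimum was 12.6 kb upstream, with 107 and 55 (-0.54, -1.05 to -0.07). Both were picked for their ratios. Of the 14 peaks near Ccr9 with that minimum, 1 was at least 1.5-fold higher and 0 were 1.5-fold lower in aged cells.

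Near Ccr1 the peak with the most fragments, 43.9 kb downstream of the start, was level with 783 and 582 (-0.02, -0.18 to 0.13). Its neighbour 40.4 kb downstream had the lowest ratio among peaks with at least 100 fragments, with 311 and 156 (-0.59, -0.88 to -0.31), and the highest was 91.5 kb upstream, with 230 and 220 (0.34, 0.07 to 0.61). Ccr2 and Ccr1 share part of their flanks, and of the 15 peaks of at least 100 fragments near Ccr2, 0 passed 1.5-fold in either direction. The largest of them, 36.3 kb downstream, had 586 and 499 (0.17, -0.00 to 0.35).

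**Figure D4:**
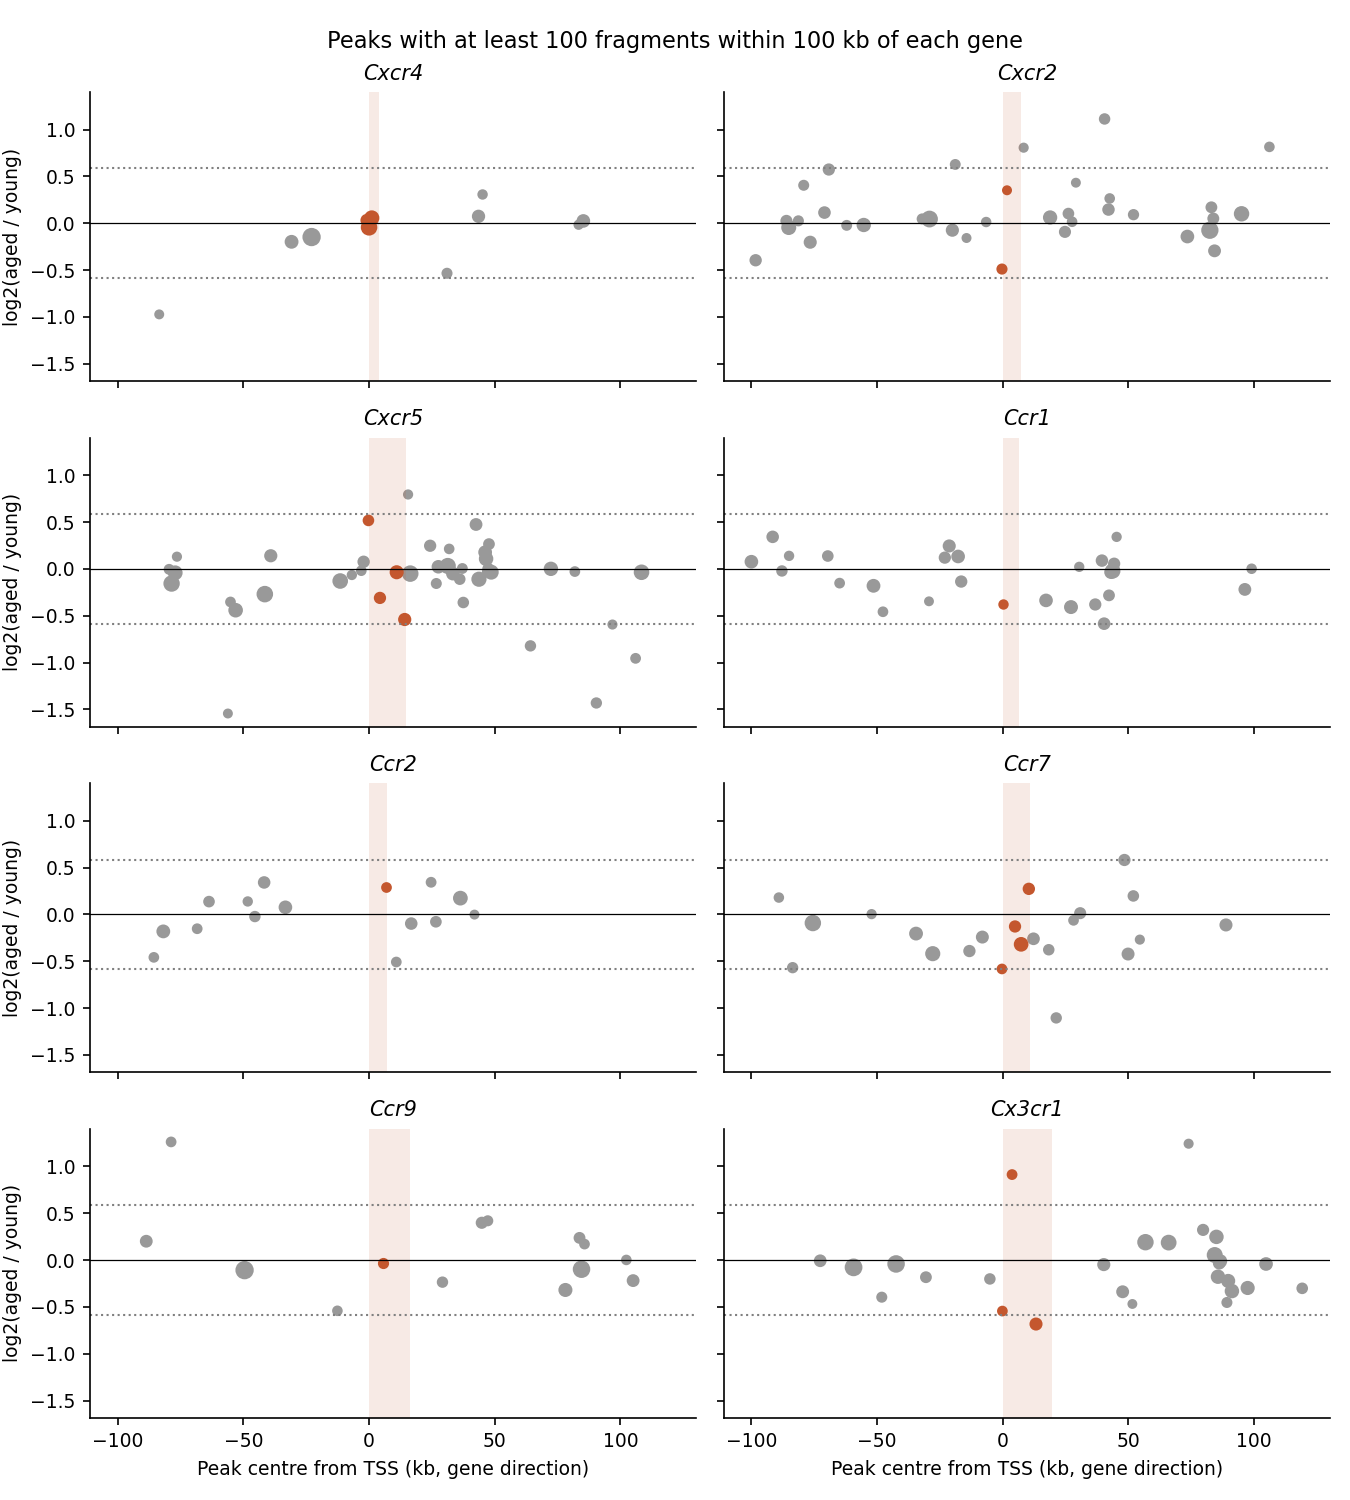
Log2(aged/young) of each peak with at least 100 fragments within 100 kb of a receptor gene, against the distance of its centre from the TSS in kb in gene direction. Shading marks the gene, dark orange points its own promoter or intragenic peaks, point area grows with the square root of the fragments, and dotted lines mark 1.5-fold. Cxcr4 peaks at the gene lie on the 0 line, Cx3cr1 holds 1 intragenic peak at 0.91 and 1 at -0.68, and most Ccr7 peaks lie below 0 with a median of -0.22.

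In bins of 500 bp, which need no peak call, 591 of 3198 bins over the genes and their flanks held at least 50 fragments. Of these, 56 (9.48%) were at least 1.5-fold higher and 33 (5.58%) at least 1.5-fold lower in aged cells, against 13.3% and 5.0% of 299411 bins genome-wide. The share of higher bins was thus below and the share of lower bins near the background. By gene, higher and lower bins numbered 16 and 5 of 127 for Cxcr2, 8 and 8 of 127 for Cxcr5, 7 and 9 of 97 for Cx3cr1, 7 and 3 of 43 for Ccr9, 7 and 1 of 44 for Ccr2, 5 and 2 of 45 for Cxcr4, 5 and 1 of 67 for Ccr1, and 3 and 4 of 67 for Ccr7. Some bins (176) belong to the flanks of more than 1 member, since Ccr9, Ccr1 and Ccr2 lie close together on chromosome 9. With cells thinned to 3000 fragments the bins numbered 20 higher and 24 lower of 313, and with short fragments 21 and 25 of 331, so higher bins did not outnumber lower ones under either. They numbered 44 and 42 of 591 on a grid shifted by 250 bp and 48 and 43 of 553 without doublets. The share over all bins was computed for the main setting only, so these counts cannot be set against a background. With this few fragments in a bin, a ratio of 1.5 is within counting error for many of them.

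Among neighbouring genes with at least 50 promoter fragments, Cxcr1, the sister receptor of Cxcr2, had the largest difference. Its promoter, 40.7 kb from the Cxcr2 start, held 140 fragments in young and 220 in aged cells, 4.04 against 8.41 FPM, a log2 ratio of 1.05 (0.75 to 1.37). The peak at the Cxcr1 start, the highest ratio among the peaks near Cxcr2 with at least 100 fragments, had 100 and 164 fragments (1.11, 0.75 to 1.49). The promoter intervals of Cxcr1 and Cxcr2, which share ligands, did not overlap. Xirp1, Slc6a20a, Krt222, Ccr1l1 and Ccdc84, also named as neighbours of the receptor genes, lay between -0.24 and 0.18.

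Per cell, a fragment at these promoters was rare except for Cxcr4. Since cells of the libraries differ in depth, shares were compared at 3000 in-peak fragments drawn from each of 4788 young and 3271 aged cells. Another 99 young and 134 aged cells had fewer than 3000 fragments in the peaks called here and were left out. A Cxcr4 promoter fragment was found in 13.4% of young cells (12.5% to 14.4%) and 12.7% of aged cells (11.5% to 13.8%), which overlap. Unthinned, the Cxcr4 shares were 27.4% and 29.4%. For Cx3cr1 the shares were 1.55% (1.22% to 1.94%) and 0.825% (0.545% to 1.20%), without overlap, and for Cxcr5 1.15% (0.867% to 1.49%) and 2.02% (1.56% to 2.56%), also without overlap. At 5000 fragments per cell the Cx3cr1 shares, 2.34% (1.89% to 2.87%) and 1.246% (0.859% to 1.75%), again did not overlap, but the Cxcr5 shares did, with 2.39% (1.94% to 2.92%) and 3.47% (2.81% to 4.24%). Unthinned, they were 3.46% and 2.32% for Cx3cr1 and 3.17% and 5.08% for Cxcr5.

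The other shares overlapped between the ages. They were 1.17% in young and 0.764% in aged cells for Ccr7, 1.38% and 1.07% for Cxcr2, 0.919% and 0.825% for Ccr1, 0.188% and 0.0917% for Ccr9, and 0.167% and 0.0917% for Ccr2. Unthinned, the shares were 2.70% and 1.94% for Ccr7, 3.07% and 2.70% for Cxcr2, 1.98% and 1.73% for Ccr1, 0.348% and 0.264% for Ccr9, and 0.327% and 0.323% for Ccr2. The median olfactory receptor promoter had a share of 0.0418% in young and 0.0306% in aged cells, with a 95th percentile of 0.146% and 0.183%. Aged Ccr2 and Ccr9 were under that percentile, and their young shares had intervals that include it.

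The fragments were spread over many cells and not piled up in a few. The 189 aged Cxcr5 promoter fragments came from 173 cells with at most 3 in a cell, and the 178 young Cx3cr1 promoter fragments came from 169 cells with at most 2. At Cxcr4, 231 of 1339 young cells with a fragment and 189 of 1000 aged cells held 2 or more.

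**Figure D5:**
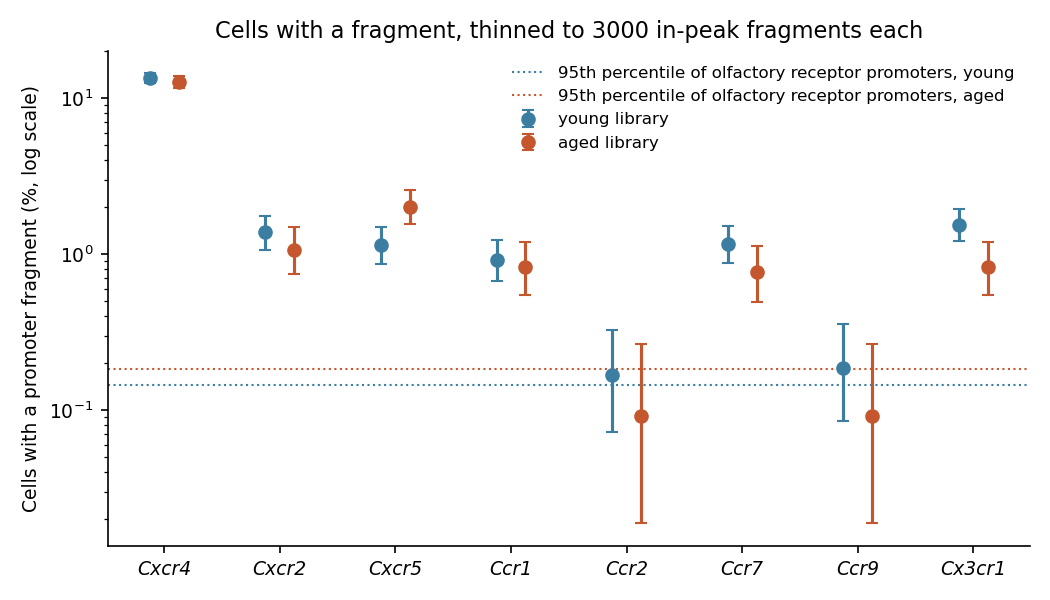
Share of cells with at least 1 promoter fragment, in percent on a log axis, at 3000 in-peak fragments drawn from each cell, with exact binomial 95% intervals. Intervals of young and aged cells are apart for Cxcr5 (1.15% and 2.02%) and Cx3cr1 (1.55% and 0.825%), and dotted lines give the 95th percentile of olfactory receptor promoters.

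Short fragments were less frequent at the promoters of Cxcr4, Cxcr2, Ccr1 and Ccr9 than over all promoters. At Cxcr4 they made up 49.3% of the fragments in young (46.8% to 51.7%) and 47.5% in aged cells (44.7% to 50.4%), against 67.7% and 64.0% over all promoters. At the Cxcr5 promoter the shares were 69.0% (61.5% to 75.9%) and 62.4% (55.1% to 69.4%), which include the share over all promoters. At Cxcr2 they were 58.1% (50.1% to 65.9%) and 44.8% (34.6% to 55.3%), with intervals that overlap between the ages. At Ccr1 they were 57.6% (47.2% to 67.5%) and 41.3% (29.0% to 54.4%). At Ccr9, with 18 and 10 fragments, they were 22.2% (6.4% to 47.6%) and 0% (0% to 30.8%).

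Other genes of the pathway were counted in the same way, against 4.04% of all promoters tested that were at least 1.5-fold higher and 1.20% that were lower. Of 16 other receptor genes, 9 promoters held at least 50 fragments, of which 1 (Cxcr1) was higher and 1 lower, with a median log2 ratio of 0.09. The scavenger receptor Ackr3, which binds Cxcl12 as Cxcr4 does, had 900 and 807 fragments (0.25, 0.11 to 0.39). Of 33 ligand genes, 32 were found and 23 held at least 50 fragments. Cxcl13, the ligand of Cxcr5, was the 1 ligand past 1.5-fold, with 17 fragments in young and 34 in aged cells (1.37, 0.53 to 2.34). This promoter was sparse. Its young level, 0.491 FPM, lay below the 95th percentile of olfactory receptor promoters (0.520 FPM), and its aged level, 1.30 FPM, above it (0.612 FPM). Of the ligands, 0 were lower, with a median of 0.03 over the 23. Cxcl12, the ligand of Cxcr4, had 407 and 373 (0.28, 0.07 to 0.49). Ackr3 and Cxcl12 are named after their values were seen. Of 24 signalling genes downstream of the receptors (G protein subunits, receptor kinases, arrestins, Rgs proteins, Rac and its partners), 24 held at least 50 fragments and 0 passed 1.5-fold in either direction, with a median of -0.11.

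Promoters of other cell types were measured in the same way, since several receptors belong to mature cells. The 8 monocyte and macrophage genes summed to 51.4 FPM in young and 44.8 FPM in aged cells (log2 ratio -0.20, -0.30 to -0.09), and of the 7 with at least 50 fragments Csf1r was at least 1.5-fold lower (114 and 49 fragments). Of these 7, 5 had log2 ratios below 0, among them Ms4a6c (-0.58, -0.88 to -0.29), Cd68 (-0.35, -0.52 to -0.17) and F13a1 (-0.34, -0.82 to 0.11), and the median was -0.34. In contrast, Clec7a went the other way with 141 and 155 fragments (0.54, 0.20 to 0.88) and Lyz2 was at 0.16 (-0.08 to 0.40). The sum, Csf1r, Ms4a6c and Cd68 had intervals below 0, the direction of Cx3cr1, that of Clec7a lay above 0, and the part of these cells in the Cx3cr1 difference was not tested. The 8 B cell genes summed to 35.7 and 37.2 FPM, with 1 lower among 5 with at least 50 fragments. Ms4a1, a defining B cell gene, had 11 and 6 fragments, and Pax5 (0.34, -0.07 to 0.74), Cd79a (0.23, -0.34 to 0.79) and Ebf1 (0.19, -0.00 to 0.39) had log2 ratios above 0 with intervals that include 0. The 8 T cell genes summed to 38.8 and 41.3 FPM, with Cd4 (73 and 18) and Cd5 (140 and 54) lower among 4. T cell defining genes Cd3e, Cd3d and Cd3g, each below 50 fragments in all, had 33, 21 and 29 fragments in young and 16, 8 and 9 in aged cells (-0.59, -1.60 to 0.26 for Cd3e, -0.88, -2.37 to 0.25 for Cd3d, and -1.18, -2.55 to -0.16 for Cd3g). Cd28 went the other way, with 835 and 841 fragments (0.42, 0.28 to 0.56). The log2 ratio of the sum was 0.09, with an interval (-0.03 to 0.21) that includes 0, although the other 7 genes had ratios below 0. The part of B and T cells in the Ccr7 and Cxcr5 values was not tested. The 8 neutrophil genes summed to 16.3 and 16.1 FPM, with Elane higher (45 and 58) among 5 and a median of -0.07 over these. Of the 5, Camp (0.25) was also above 0, and Ltf (-0.07), Mmp9 (-0.11) and Mmp8 (-0.52) were below 0. The intervals of Camp, Ltf, Mmp9 and Mmp8 include 0. The 6 NK cell genes summed to 25.5 and 31.2 FPM (log2 ratio 0.29, 0.15 to 0.43), with a median of 0.40 over the 4 with at least 50 fragments. The 6 megakaryocyte genes summed to 130 and 129 FPM (-0.01, -0.08 to 0.05), and 0 genes passed 1.5-fold in either list.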

How the data were processed

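Nuclei of sorted young and aged HSCs were profiled with a droplet single-cell ATAC-seq kit (10x Genomics), 1 library per age. Alignment to mm10, removal of duplicates and calling of cells were done by the authors with Cell Ranger ATAC. The deposited fragment lists give coordinates, barcode and read count of each unique fragment, and the deposited barcode tables hold counts per barcode made by the authors, with no normalization. Whether the release named in their methods made the deposited barcode tables was not established here. Listed fragments equalled the authors' count for every barcode.

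The 8 genes and all lists were chosen with earlier results of these data known, so no pattern here is independent support. Groups came from the sample labels. Cells were barcodes called by the authors with 3000 to 20000 fragments in the authors' peaks. Scaling and thinning used the peaks called here, in which some of these cells held fewer than 3000 fragments. Doublets were marked by an excess of autosomal loci where 3 or more fragments of a cell overlap (q under 0.01) and kept. Start sites and gene bodies are RefSeq models on GRCm38, since the 5' ends in GENCODE lie 35.4 kb upstream for Cxcr5 and 88.8 kb for Ccr9. Each fragment with an end inside a region added 1 to its count. Peaks were called on cut sites of each library (windows of 151 bp, Poisson against 10000 bp around, q under 0.001, gaps of up to 50 bp joined) and merged to 164572. A sparse peak can therefore enter through the library in which it is higher. Ratios are log2(aged/young), scaled to in-peak fragments, with a pseudocount of 1 fragment. Levels have exact Poisson, ratios and shares exact binomial 95% intervals. For shares, cells were thinned at random. Called means at least 1.5-fold, with at least 50 fragments in both libraries together (100 for peaks).

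Named elements were, per gene, the peak outside all promoters with the most fragments and, of peaks with at least 100 fragments, those with the highest and lowest ratio. The named neighbour was the gene with the largest ratio within 100 kb. The values of some single genes picked by these rules are not reported here. Sequences are RefSeq promoters and GRCm38. Besides the motifs spelled out with the sequences, GAGGAAGT (PU.1), GCTGAGTCA (NFE2/CNC, which overlaps AP-1) and TTCCNGGAA (STAT) were searched on both strands. The letters for ETS factors were CCGGAAG. For GATA factors the motif that was searched reads AGATAA in the same way. The counting, peak and ratio code was tested on simulated data. Python 3.11.15, NumPy 2.4.6, SciPy 1.17.1, pandas 2.3.3 and matplotlib 3.10.9 were used.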

Additional observations from a re-analysis of the deposited data

Results flagged for a closer look

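Barcodes outside the cells used also held fragments at the 8 promoters, more than the 3 that a count of 0 allows. Barcodes not called as cells held 95 in the young library (61.1 FPM on their own in-peak fragments) and 137 in the aged library (88.4 FPM), of which 52 and 70 were at Cxcr4. Called cells above 20000 fragments in the authors' peaks held 18 (76.7 FPM) in the young and 154 (58.3 FPM) in the aged library. The cells used held 2388 (68.9 FPM) and 1739 (66.5 FPM).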

How the results depend on the processing

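No paired analysis was possible because each age has 1 library. Over alternatives, 104 of 111 values of the member promoter ratios and 99 of 104 of the gene body ratios stayed within the 95% interval of the reported ratio. The direction of Cxcr5 (0.52 to 0.87), Ccr7 (-0.65 to -0.47) and Cx3cr1 (-0.82 to -0.62) at the promoter held under each change of cells, scaling and counting. The Cxcr5 promoter was at 0.091 with a window of 5 kb, -0.54 at Cxcr5-204 (its use as the GENCODE 5' end was chosen after seeing the data), -1.03 at Cxcr5-202 and -0.996 at Cxcr5-203. Cx3cr1 was at -0.11 with 5 kb, and Ccr9 at -1.83 with short fragments. Gene bodies that left their interval were Cxcr4 without the promoter kb (-0.068), Cxcr5 with short fragments (-0.31), Ccr2 (0.45) and Ccr9 (-0.44) with thinned cells, and Cx3cr1 over the GENCODE gene (-0.059, chosen after seeing the data).

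Among members with at least 50 fragments, promoters higher numbered 1 (Cxcr5) with all barcodes, scaling to TSS fragments, thinning, cut ends, a window of 500 bp or the smaller fold threshold. Those lower numbered 2 scaled to all nuclear fragments (Ccr7 and Cx3cr1), 4 with short fragments (Cxcr2, Ccr1, Ccr7 and Cx3cr1), 3 at the smaller fold, and 0 with windows of 500 bp or 5 kb or a fold of 2. Flank bins, 56 higher and 33 lower of 591, numbered 20 and 24 of 313 thinned, 21 and 25 of 331 with short fragments, 87 and 63 of 756 with cut ends, 627 and 635 of 3198 without a minimum, 19 and 15 of 372 with a minimum of 100, 35 and 29 of 465 in bins of 1000 bp, 36 and 18 of 362 within 50 kb, 128 and 98 at the smaller fold, and 13 and 8 at a fold of 2. Peaks numbered 3 higher when thinned, 13 higher with cut ends and 14 lower with short fragments. At the smaller fold, other receptors had 2 higher and 2 lower, ligands 4 higher and signalling genes 1 lower. At a fold of 2, other receptors had 0 lower. Without a minimum, ligands had 6 higher and 1 lower. Shares over all bins, peaks and promoters were not computed under these alternatives. The cause of these changes was not tested, except that a fold, a minimum or a window changes the count by its construction. Shares of cells depend on depth: 22 of 48 stayed within their interval. No test with cells as replicates was made. Depth limits the low promoters most: Ccr2 and Ccr9 have at most 18 fragments in a library at their RefSeq starts.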
